A study of Mus musculus with 8 samples.

Results

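The genes described here are 35 antiviral effectors induced by interferon, taken by symbol from a list that leaves out signalling genes, nucleic acid sensors, other GTPase families, Schlafen genes and MHC genes. All 35 were found among the 24222 gene symbols counted. They were measured by RNA-seq in haematopoietic stem cells, which renew themselves and give rise to all blood cells, of mice with a triple knockout (KO) of Kdm4a, Kdm4b and Kdm4c and of wild-type (WT) control mice. The cells were sorted by flow cytometry from bone marrow of 4 KO and 4 WT mice on a C57BL6 background, 2 weeks after induction of the knockout, with 1 library per mouse. The sources used here do not give the mice's ages, the markers of the sort, the inducing agent, or whether WT mice received it.

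Interferons are secreted proteins that bind receptors on the cell surface and, through JAK kinases, activate transcription factors, among them STAT2 and IRF9. These enter the nucleus and bind a DNA motif, the interferon-stimulated response element, in front of its target genes. The targets encode proteins that block steps of virus replication, and stem cells are known to express some of them without infection. Kdm4a, Kdm4b and Kdm4c encode demethylases of histone H3, among them of lysine 9.

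Totals ran from 5541504 to 14872493 counts in KO libraries and from 3594315 to 6044289 in WT libraries, KO mouse 3 being the deepest and WT mouse 2 the shallowest. Levels are CPM, a gene's counts scaled to a common library size with edgeR's TMM factors. Kdm4c lay between 26.0 and 49.0 CPM in KO libraries and between 98.8 and 148 CPM in WT libraries (edgeR quasi-likelihood test, adjusted p = 2.06e-05). Kdm4a lay between 17.7 and 26.0 CPM in KO and between 29.5 and 50.1 CPM in WT, and Kdm4b between 1.11 and 5.15 CPM in KO and between 6.71 and 12.1 CPM in WT. Kdm4a and Kdm4b had adjusted p of 0.132 and 0.142 by edgeR, and whether the counted reads come from the deleted parts is not known. All 15 stem cell markers examined were measured, among them Kit at 888 ± 99.6 CPM in KO and 1093 ± 60.6 CPM in WT, and Slamf1 at 100.1 ± 5.66 CPM in KO and 104 ± 5.14 CPM in WT (SD, n = 4).

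The antiviral genes were on balance higher in KO stem cells. Ifi44 and Oasl2 rose past the threshold, an adjusted p of 0.05 over all genes tested, and no member fell past it. Of the 35 genes, 34 passed the filter on low counts, and 30 of these had a log2 fold change above 0, where 50.2% of the 11498 genes tested did. Their median log2 fold change, KO over WT, was 0.46, against 0.00 for all genes tested. Of all genes tested 0.583% passed the threshold, 0.252% higher and 0.33% lower in KO. At an unadjusted p under 0.05, 19 members were higher and 0 lower, where 5.75% of all genes were higher and 5.45% lower. In 12 members every KO library lay above every WT library, which held for 2.88% of all genes, and in 0 every KO library lay below every WT library, which held for 2.93%.

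In 33 of the 34 members all 4 WT libraries, the lower group in most, had 10 or more counts. The exception, Oasl1, had 8 counts in WT mouse 2. Ifi27l2a, the member that did not pass, had 9, 11, 35 and 7 counts in KO mice 1 to 4, against 14, 1, 1 and 7 counts in WT mice 1 to 4. The count of 2 called members became 6 without WT mouse 4 and 5 without KO mouse 3, and each of these sets held Ifi44 and Oasl2. Over all genes, 65 were called without WT mouse 4 and 52 without KO mouse 3, against 67 with all libraries. RNA was measured in bulk, so fewer cells that express a gene and less RNA per cell cannot be told apart.

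**Figure D1:**
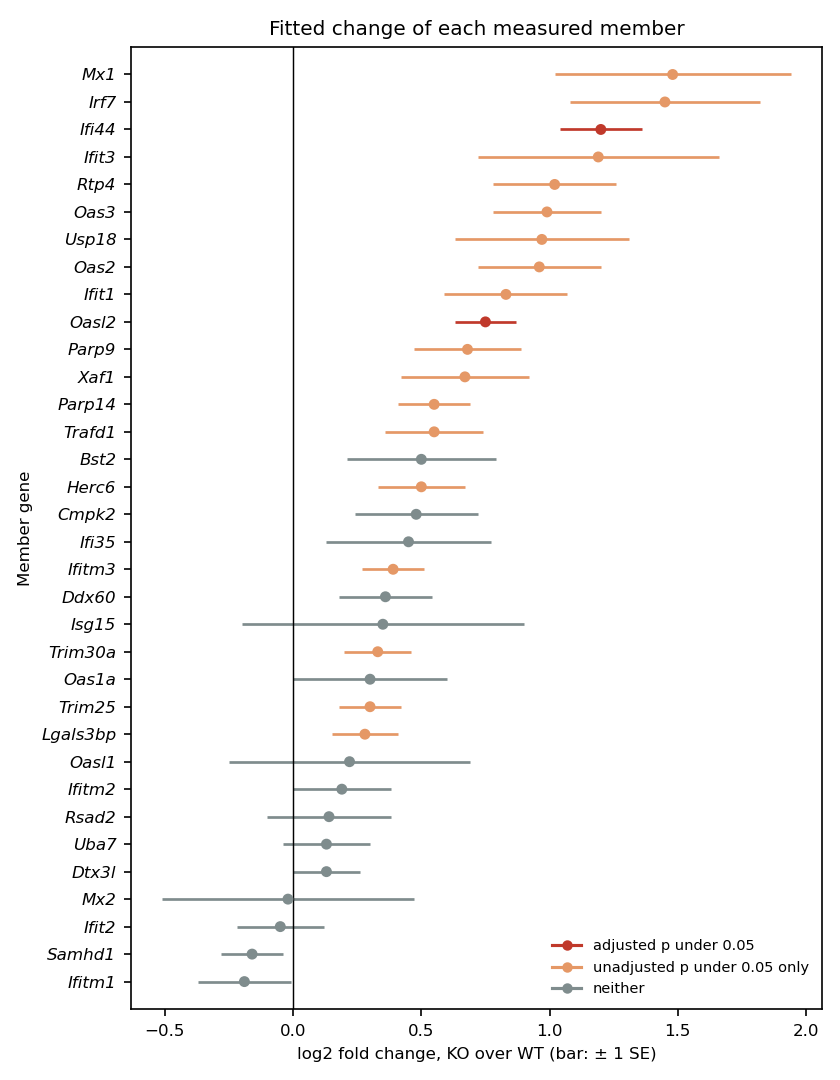
Fitted log2 fold change of the 34 measured members, KO over WT (points, with bars of 1 SE), ordered by size and coloured by whether the adjusted or the unadjusted p was under 0.05. Mx1 stands at the top at 1.48, and 4 members, Mx2, Ifit2, Samhd1 and Ifitm1, lie below 0.

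Promoter windows of 250 bases before to 50 bases after the annotated start were at hand for 27 of the members from RefSeq (GRCm38.p6). They were searched on both strands for GAAANNGAA, the core of the interferon-stimulated response element, and for TTCNNNGAA, the gamma-activated site of genes that respond to interferon gamma. The response element core was present in the windows of 13 of the 27 members (48.1%), against 9.76% of the 27025 genes with a window. The gamma-activated site was present in 6 of the 27 (22.2%), against 9.55%. A match describes letters in the window and is not a site shown to be bound.

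The windows of the 2 genes that rose are printed with those of Ifit1 and Isg15, which with Ifit3 hold the most matches (3 each), so that the elements can be compared. Capitals mark matches to the response element core on either strand. The windows lie at chr3:151749861-151750160 (minus strand) for Ifi44, chr5:114896684-114896983 (plus strand) for Oasl2, chr19:34640639-34640938 (plus strand) for Ifit1 and chr4:156200769-156201068 (minus strand) for Isg15, each printed 5′ to 3′ in the direction of its gene.
Ifi44: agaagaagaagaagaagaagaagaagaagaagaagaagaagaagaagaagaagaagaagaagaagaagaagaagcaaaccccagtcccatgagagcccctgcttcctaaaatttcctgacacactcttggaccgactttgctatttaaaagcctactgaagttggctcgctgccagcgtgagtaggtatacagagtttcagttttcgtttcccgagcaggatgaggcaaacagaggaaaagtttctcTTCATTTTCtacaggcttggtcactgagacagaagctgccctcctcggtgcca
Oasl2: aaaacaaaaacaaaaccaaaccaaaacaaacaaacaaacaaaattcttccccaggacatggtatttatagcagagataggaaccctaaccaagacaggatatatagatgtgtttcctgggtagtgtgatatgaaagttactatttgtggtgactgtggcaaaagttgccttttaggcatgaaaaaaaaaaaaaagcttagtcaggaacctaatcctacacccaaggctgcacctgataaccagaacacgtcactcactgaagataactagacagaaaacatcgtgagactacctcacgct
Ifit1: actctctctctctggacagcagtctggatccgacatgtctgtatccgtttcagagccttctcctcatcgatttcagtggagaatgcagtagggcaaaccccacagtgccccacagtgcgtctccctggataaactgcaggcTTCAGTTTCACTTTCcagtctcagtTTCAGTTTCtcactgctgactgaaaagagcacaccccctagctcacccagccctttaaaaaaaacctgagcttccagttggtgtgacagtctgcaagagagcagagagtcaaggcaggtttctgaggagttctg
Isg15: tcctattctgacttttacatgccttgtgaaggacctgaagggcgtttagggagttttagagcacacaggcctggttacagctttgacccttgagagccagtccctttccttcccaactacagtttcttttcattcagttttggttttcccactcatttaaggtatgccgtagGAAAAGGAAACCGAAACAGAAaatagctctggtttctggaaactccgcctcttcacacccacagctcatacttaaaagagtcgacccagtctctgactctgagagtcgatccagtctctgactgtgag

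Isg15 held 3 overlapping matches that began 78, 72 and 66 bases before the start, and Ifit1 held 3 that began 109, 103 and 84 bases before it. The 1 match of Ifi44 began 3 bases before the RefSeq start, which lies inside the GENCODE bounds of that gene. The window of Oasl2 held none. Among members with a window, the median change was the same with and without a match. The 13 members with a match had a median log2 fold change of 0.36 (range 0.14 to 1.20), and so did the 14 with a window and no match (median 0.36, range -0.19 to 1.45). The 8 members with no window, Oas2, Mx1, Mx2, Usp18, Rtp4, Parp14, Parp9 and Ifi27l2a, which did not pass the filter, are outside this comparison, and those of them that were tested had a median of 0.96.

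**Figure D2:**
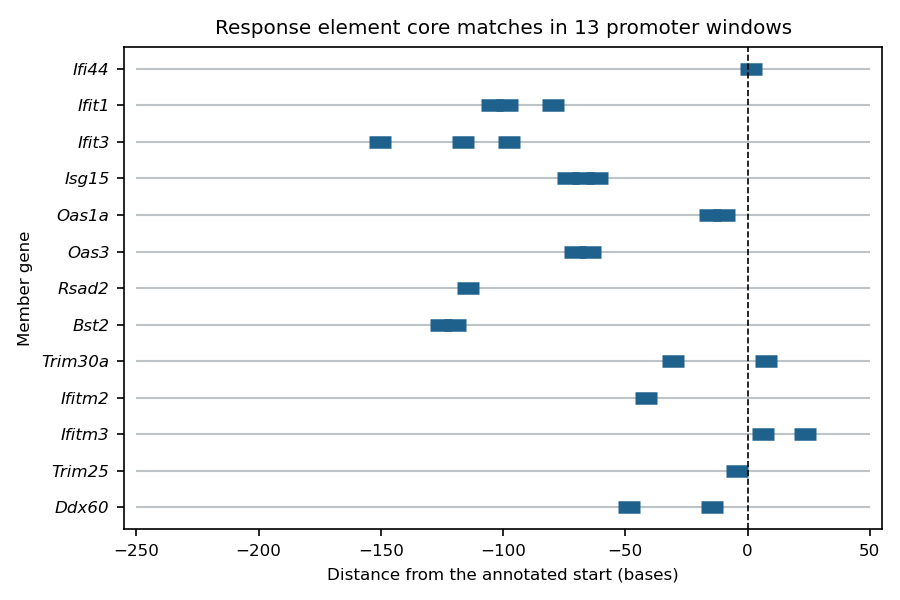
Positions of matches to the response element core (blue bars) in the promoter windows of the 13 members that hold one, by distance in bases from the annotated start (dashed line). Ifit1, Ifit3 and Isg15 hold 3 matches each, and the matches of Trim30a come from 2 annotated starts drawn on 1 line.

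In level per kilobase of exon, 2 IFITM genes came first. The length takes in all annotated exons of a gene, not those of a single transcript, so the order depends in part on the annotation. Ifitm3 was at 853 CPM per kilobase of exon in KO and 649 in WT, Ifitm2 at 267 in KO and 234 in WT, and Lgals3bp at 124 in KO and 101 in WT. Lowest in WT were Mx1 and Irf7. Mx1 was at 3.39 CPM per kilobase in KO and 1.11 in WT, and Irf7 at 4.48 in KO and 1.54 in WT. Ifitm3, Ifitm2 and Lgals3bp held places 1 to 3 of 35 in both genotypes. Isg15, known as a strongly induced gene, was in place 25 in KO and in place 26 in WT.

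The OAS family makes or resembles the synthetases of 2′-5′ oligoadenylate, the messenger that turns on RNase L, which cuts RNA. Oasl2, at chr5:114896936-114912234, was at 502, 564, 457 and 502 CPM in KO mice 1 to 4, against 242, 283, 307 and 370.3 CPM in WT mice 1 to 4. Every KO value lay above every WT value, and the log2 fold change was 0.75 (SE 0.12, adjusted p = 0.00179 by edgeR). Oas2 was at 43.4, 59.5, 47.4 and 46.6 CPM in KO mice 1 to 4, against 26.2, 19, 15.9 and 36.8 CPM in WT mice 1 to 4. Its libraries did not overlap either, with a log2 fold change of 0.96 (SE 0.24), but it missed the threshold (adjusted p = 0.0667 by edgeR).

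Oas3, a long synthetase with the largest fold in the family, was split by 1 library. It was at 480.1, 439.8, 245 and 567 CPM in KO mice 1 to 4, against 192, 181, 263 and 221 CPM in WT mice 1 to 4. KO mouse 3 thus lay below WT mouse 3, while the other KO mice lay well above all WT mice. The log2 fold change was 0.99 (SE 0.21, adjusted p = 0.0537 by edgeR), and the gene passed without KO mouse 3. With all libraries kept, it also passed with DESeq2, limma voom, edgeR's legacy method, library totals, no filter and thinned counts. It did not pass with DESeq2 size factors, the filter of 5 CPM in 4 libraries, the replicate block or the omission of any other library. Oas1a and Oasl1 had log2 fold changes of 0.30 (SE 0.30) and 0.22 (SE 0.47), with overlapping libraries in both.

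The IFIT proteins bind viral RNA with foreign cap structures or free 5′ phosphates. Ifit1 was at 178, 165, 85.6 and 137 CPM in KO mice 1 to 4, against 51.7, 70.5, 72.3 and 115 CPM in WT mice 1 to 4. Here 3 KO mice lay above all WT mice and KO mouse 3 lay below WT mouse 4, with a log2 fold change of 0.83 (SE 0.24, adjusted p = 0.157 by edgeR). Ifit3 had a log2 fold change of 1.19 (SE 0.47) but rested on 10 to 45 counts per WT library. Ifit2 showed no such difference, at 63.9, 68.4, 58.6 and 78.5 CPM in KO mice 1 to 4, against 71.4, 64.6, 74.4 and 64.4 CPM in WT mice 1 to 4. Its log2 fold change was -0.05 (SE 0.17).

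Mx proteins are dynamin-like GTPases that trap viral nucleocapsids, and common laboratory strains such as C57BL6 carry an Mx1 allele that makes no full-length protein. Mx1 was at 10.6, 19.5, 8.02 and 13.2 CPM in KO mice 1 to 4, against 1.91, 3.64, 4.31 and 6.94 CPM in WT mice 1 to 4. All KO values lay above all WT values, and its log2 fold change of 1.48 (SE 0.46) was the highest of the members, although it did not pass (adjusted p = 0.172 by edgeR) and rested on 11 to 43 counts per WT library. Mx2 was at 7.43, 18.5, 3.68 and 5.57 CPM in KO mice 1 to 4, against 8.49, 3.36, 5.48 and 12.9 CPM in WT mice 1 to 4. Those values overlapped throughout, with a log2 fold change of -0.02 (SE 0.49). The GENCODE annotation lists Mx2 as a polymorphic pseudogene.

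ISG15 is a ubiquitin-like protein that is joined to other proteins by UBA7, its activating enzyme, and ligases such as HERC6, and is removed by USP18, which also damps signalling from the interferon receptor. Isg15 itself was at 11.4, 3.82, 2.34 and 12.1 CPM in KO mice 1 to 4, against 3.12, 3.36, 4.5 and 7.74 CPM in WT mice 1 to 4. KO mice 1 and 4 were the highest of the 8 and KO mouse 3 was the lowest, and the log2 fold change was 0.35 (SE 0.55, adjusted p = 0.886 by edgeR), or -0.04 without KO mouse 1. Usp18 was at 16.7, 27.2, 17.8 and 30.1 CPM in KO mice 1 to 4, against 15.9, 3.64, 13.5 and 9.36 CPM in WT mice 1 to 4. The groups did not overlap, though the gap between KO mouse 1 and WT mouse 1 was small, and the log2 fold change was 0.97 (SE 0.34, adjusted p = 0.247 by edgeR). Herc6, Trim25, a ligase that also acts on the RNA sensor RIG-I, and Uba7 had log2 fold changes of 0.50, 0.30 and 0.13, and none of these 3 passed.

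Among the regulators and other induced proteins, all 9 that were measured had a log2 fold change above 0, where 50.2% of all genes tested did. In 6 every KO library lay above every WT library, which held for 2.88% of all genes. Ifi44, at chr3:151730922-151749960, encodes a cytoplasmic protein that restricts several viruses. It was at 338, 342, 273 and 302 CPM in KO mice 1 to 4, against 132, 94.0, 122 and 189 CPM in WT mice 1 to 4. The lowest KO mouse lay well above the highest WT mouse, and the fold was 2.29 (log2 1.20, SE 0.16, adjusted p = 8.03e-05 by edgeR).

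Irf7 encodes a transcription factor that amplifies interferon production. It was at 21.7, 17.3, 13.6 and 15 CPM in KO mice 1 to 4, against 5.72, 3.36, 6.86 and 7.26 CPM in WT mice 1 to 4. The groups were far apart, but counts were low and the log2 fold change of 1.45 (SE 0.37) missed the threshold (adjusted p = 0.0674 by edgeR). Rtp4, a receptor transporter protein with antiviral activity, was at 69.9, 61.3, 63.1 and 68.3 CPM in KO mice 1 to 4, against 23.1, 17.3, 26.6 and 55.8 CPM in WT mice 1 to 4. WT mouse 4 stood close to the KO mice, and the log2 fold change was 1.02 (SE 0.24, adjusted p = 0.0518 by edgeR), or 1.51 (adjusted p = 0.00119 by edgeR) without that mouse. With all libraries kept, Rtp4 also passed with DESeq2, no filter, the filter of 5 CPM in 4 libraries, the replicate block and thinned counts. It did not pass with DESeq2 size factors, library totals, limma voom or edgeR's legacy method. In Rtp4, 13.9% of exon bases are shared with another annotated transcript on the same strand.

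Xaf1, whose product binds the apoptosis inhibitor XIAP, was at 43.7, 40.9, 31.4 and 32.9 CPM in KO mice 1 to 4, against 18.9, 12.6, 27.2 and 30.7 CPM in WT mice 1 to 4. Trafd1, a feedback inhibitor of innate immune signalling, was at 67.7, 107, 71.9 and 97.5 CPM in KO mice 1 to 4, against 61.0, 58.7, 45.2 and 66.8 CPM in WT mice 1 to 4. Trim30a, a TRIM protein of mice, was at 197, 253, 212 and 211 CPM in KO mice 1 to 4, against 174, 185, 162 and 175 CPM in WT mice 1 to 4. In these 3 genes the KO libraries all lay above the WT libraries by narrow margins, with log2 fold changes of 0.67, 0.55 and 0.33 that did not pass. Lgals3bp, a secreted glycoprotein, was at 334, 362, 336 and 380.5 CPM in KO mice 1 to 4, against 341, 239, 249 and 323 CPM in WT mice 1 to 4. WT mouse 1 lay among the KO mice, and the log2 fold change was 0.28 (SE 0.13). Ifi35 and Ddx60, a helicase-like protein, had log2 fold changes of 0.45 (SE 0.32) and 0.36 (SE 0.18) with overlapping libraries.

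**Figure D3:**
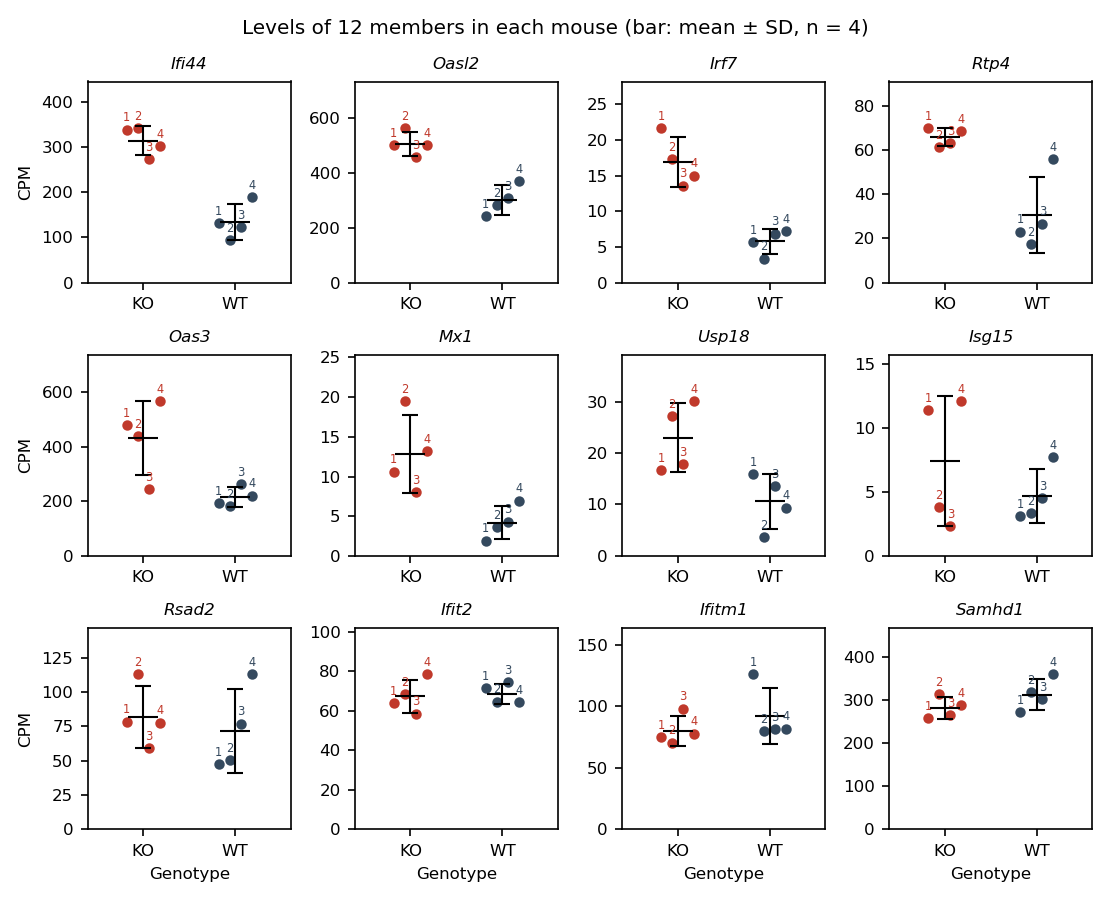
CPM of 12 members in each mouse (points, numbered by mouse), KO left and WT right in each panel, with mean ± SD over 4 mice. The points of Ifi44, Oasl2, Irf7, Rtp4, Mx1 and Usp18 do not overlap between genotypes, while those of Oas3, Isg15, Rsad2, Ifit2, Ifitm1 and Samhd1 do.

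The nucleotide enzymes did not separate the genotypes. Rsad2, or viperin, which makes a chain-terminating nucleotide, was at 78.5, 113, 59.0 and 77.6 CPM in KO mice 1 to 4, against 47.2, 50.1, 77.0 and 113 CPM in WT mice 1 to 4. Its log2 fold change was 0.14 (SE 0.24), and WT mouse 4 matched the highest KO mouse. Samhd1, which breaks down deoxynucleotides, was at 257, 313, 265 and 287 CPM in KO mice 1 to 4, against 272, 317, 301 and 359 CPM in WT mice 1 to 4. Its log2 fold change was -0.16 (SE 0.12), and that of Cmpk2, a mitochondrial nucleotide kinase gene next to Rsad2, was 0.48 (SE 0.24).

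The membrane restriction factors are Bst2, or tetherin, which holds budding virus at the cell surface, and the IFITM proteins, which hinder fusion of viral and cell membranes. Ifitm3 was at 662, 544, 547 and 562 CPM in KO mice 1 to 4, against 479, 345, 465 and 470.5 CPM in WT mice 1 to 4. The groups did not overlap, and the log2 fold change was 0.39 (SE 0.12, adjusted p = 0.143 by edgeR). Ifitm1 was at 74.6, 70.4, 98.1 and 77.6 CPM in KO mice 1 to 4, against 126, 79.7, 81.3 and 81.8 CPM in WT mice 1 to 4. Its log2 fold change of -0.19 (SE 0.18) was the lowest of the members. Ifitm2 was at 128, 158, 212 and 201 CPM in KO mice 1 to 4, against 219, 119.7, 162 and 111 CPM in WT mice 1 to 4. It overlapped fully, with a log2 fold change of 0.19 (SE 0.19), and 40.9% of its exon bases are shared with another annotated gene, so its counts are uncertain. Bst2 had a log2 fold change of 0.50 (SE 0.29).

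PARP9 and its partner DTX3L, a ubiquitin ligase, and PARP14 are linked to ADP-ribosylation in the interferon response. Parp14 was at 182, 218, 186 and 222 CPM in KO mice 1 to 4, against 121, 137, 122 and 169 CPM in WT mice 1 to 4. Its groups did not overlap, with a log2 fold change of 0.55 (SE 0.14, adjusted p = 0.0713 by edgeR). Parp9 and Dtx3l, which lie head to head on chromosome 16, had log2 fold changes of 0.68 (SE 0.21) and 0.13 (SE 0.13). Their exons overlap on opposite strands over 9.4% of the exon bases of Parp9, and the sources used here do not say whether strand was used in counting.

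**Figure D4:**
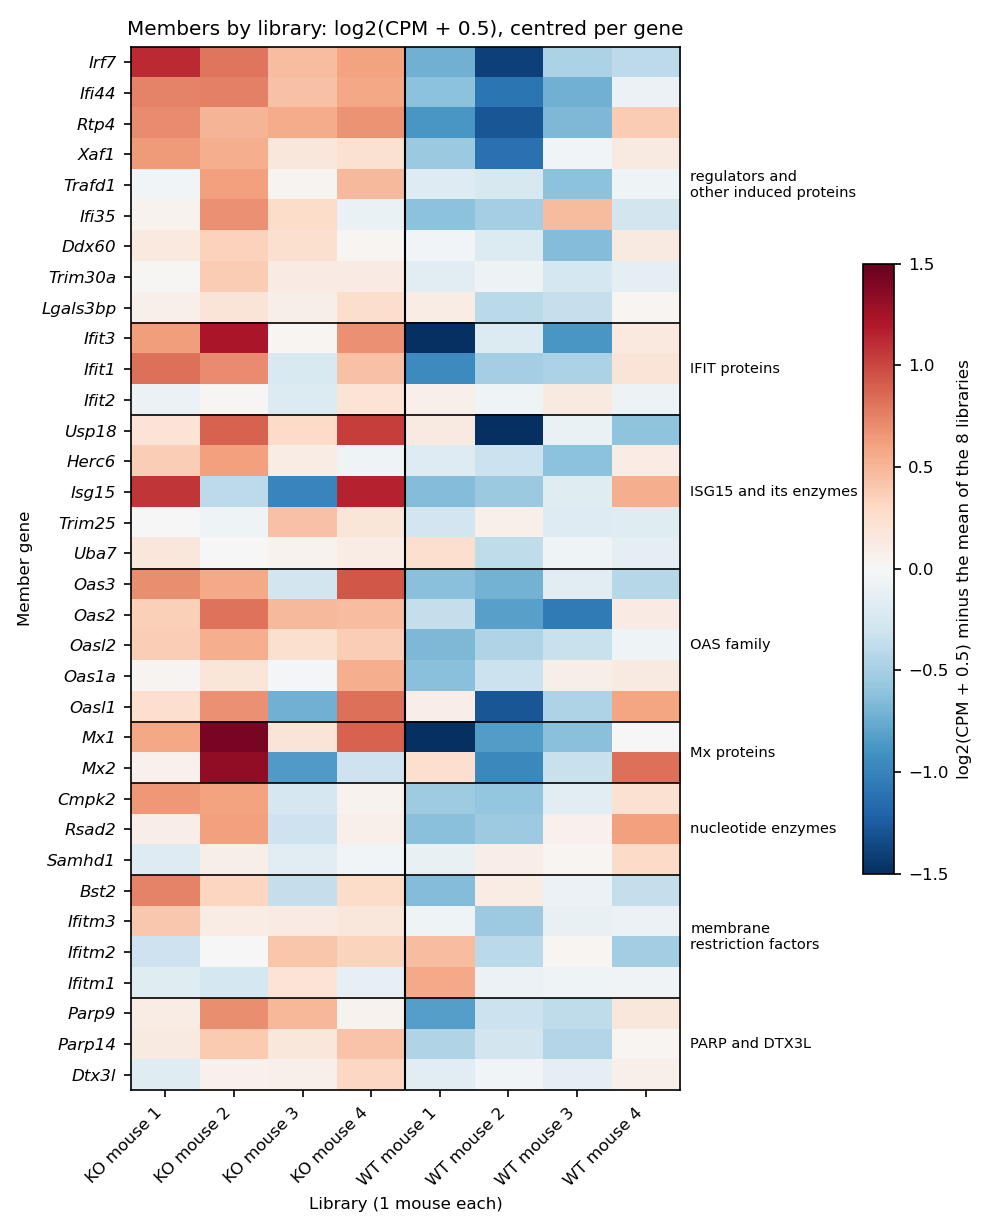
Levels of the 34 measured members (rows, by role and then by fold) in the 8 libraries (columns, KO left of the line), as log2(CPM + 0.5) minus the mean over the libraries. KO mouse 3 is paler than the other KO mice in many rows, and WT mouse 4 is redder than the other WT mice.

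Per-mouse scores were taken as the mean over the 34 measured members of log2 CPM, centred on each gene's mean over the 8 libraries. They were 0.308, 0.477, 0.038 and 0.355 in KO mice 1 to 4, against -0.385, -0.541, -0.291 and 0.040 in WT mice 1 to 4. The mean was 0.294 ± 0.185 in KO and -0.294 ± 0.246 in WT (SD, n = 4), a difference of 0.588. KO mouse 3 and WT mouse 4 met at nearly the same score, 0.002 apart with WT mouse 4 the higher, while the other 3 KO mice lay above all WT mice. Which of these 2 mice was the higher depended on the form of the score. KO mouse 3 was the higher by 0.043 with no filter on low counts and by 0.052 with only members at 5 CPM or more in 4 libraries. It was the higher by 0.09 with the median over members and by 0.089 with members scaled to unit SD. KO and WT mice did not overlap in these 4 forms. In the other forms with both mice, WT mouse 4 stayed the higher. The scores of KO mouse 3 and WT mouse 4 were -0.006 and 0.063 with 26 members, without some that have near copies or overlaps. They were 0.05 and 0.08 with library totals, and 0.019 and 0.048 without Ifi44 and Oasl2. Since the members were chosen with results known, no test is given for the score.

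The same libraries set the limits gene by gene. KO mouse 3 was the lowest KO library in 16 of the 34 members, and WT mouse 4 the highest WT library in 22. Set against each other, KO mouse 3 was the higher in 22 members, among them Ifi44, Oasl2, Irf7, Rtp4 and Mx1. It was the lower in 12, among them Ifit1, Ifit3, Isg15, Oasl1, Mx2, Rsad2 and Cmpk2. KO mouse 3 was the deepest library, and with all libraries thinned to 3594315 counts the scores were 0.017 in KO mouse 3 and 0.024 in WT mouse 4.

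Split by role, the scores of the regulators and other induced proteins did not overlap, between 0.269 and 0.542 in KO mice and between -0.712 and -0.034 in WT mice. Those of ISG15 and its enzymes were between -0.028 and 0.493 in KO mice and between -0.621 and -0.051 in WT mice, so KO mouse 3 was just above WT mouse 4. In the OAS family the scores ran from -0.064 to 0.637 in KO mice and from -0.729 to 0.079 in WT mice. The nucleotide enzymes overlapped most widely after the Mx pair, from -0.240 to 0.438 in KO mice and from -0.428 to 0.379 in WT mice. In each of these last 2 role groups, and in the IFIT and Mx groups, KO mouse 3 was the lowest KO mouse and WT mouse 4 the highest WT mouse.

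The members' share of all counts, which weights each gene by its reads, did not overlap between the genotypes. The 35 genes took 0.491%, 0.529%, 0.465% and 0.503% of counts in KO mice 1 to 4, against 0.349%, 0.331%, 0.356% and 0.418% in WT mice 1 to 4. All KO shares lay above all WT shares, and KO mouse 3 and WT mouse 4 were again the nearest pair.

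**Figure D5:**
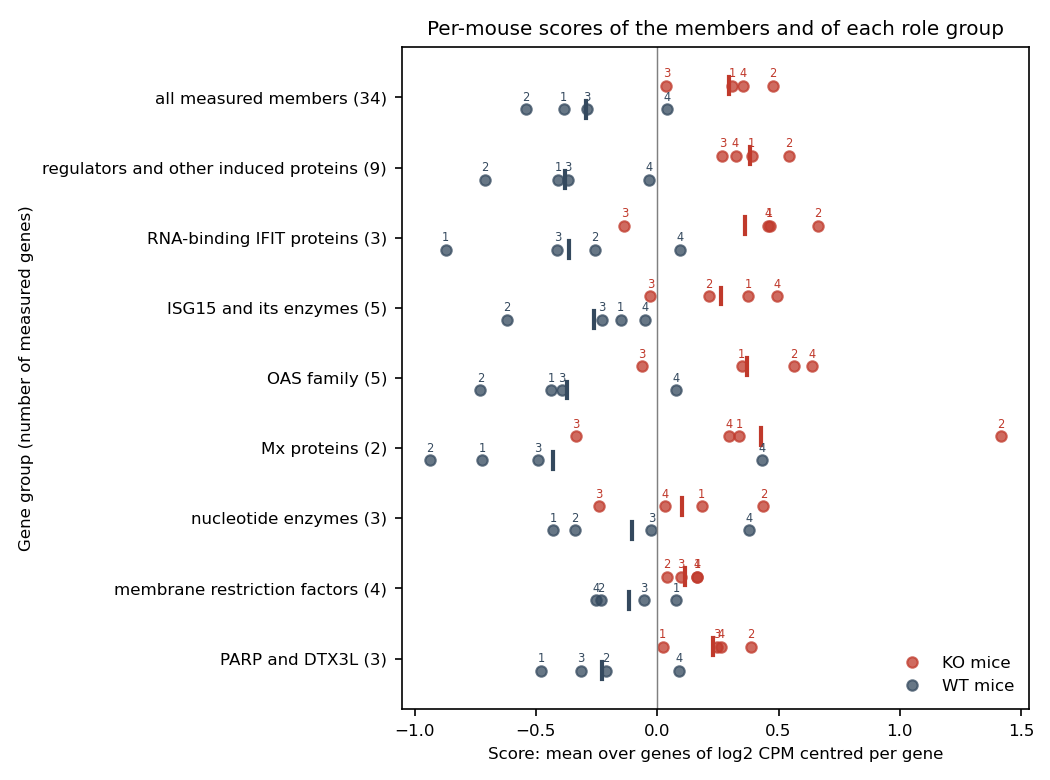
Per-mouse scores (mean over genes of log2 CPM centred per gene) of the 34 measured members and of each role group, KO mice in red above WT mice in blue, numbered by mouse, with a vertical bar at each group mean. For all members KO mouse 3 and WT mouse 4 coincide near 0.04, and in the regulators the genotypes do not overlap.

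Genes upstream in the pathway were examined next. Of 21 interferon genes none passed the filter, 16, among them Ifnb1 and Ifng, had 0 counts in every library, and the 21 summed to between 1 and 32 counts per KO library and between 1 and 7 per WT library. Scaled for library size these sums overlapped, between 0.143 and 2.14 CPM in KO and between 0.28 and 1.13 CPM in WT. Of 16 measured genes of receptors and signalling, 9 had a log2 fold change above 0, the median was 0.02, and Stat2 rose and 0 fell, with 3 higher and 1 lower at an unadjusted p under 0.05. Stat2 was at 124, 104, 93.9 and 101 CPM in KO mice 1 to 4, against 42.0, 59.0, 59.7 and 82.8 CPM in WT mice 1 to 4 (adjusted p = 0.0492 by edgeR). Irf9, whose product binds the response element together with STAT2, did not pass, with a log2 fold change of 0.50 (SE 0.20, adjusted p = 0.34 by edgeR).

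Of 17 measured nucleic acid sensors and adaptors, 10 had a log2 fold change above 0, with a median of 0.20, and 0 rose and 1, Zcchc3, fell, with 7 higher and 3 lower at an unadjusted p under 0.05 by edgeR. All 14 measured interferon-induced GTPases of the GBP and IRG families had a log2 fold change above 0, with a median of 0.56. Of these Iigp1, an IRG GTPase, rose, at 137 ± 17.7 CPM in KO and 77.9 ± 21.6 CPM in WT (SD, n = 4, adjusted p = 0.0279 by edgeR), and 9 were higher at an unadjusted p under 0.05. Over all genes tested, 50.2% had a log2 fold change above 0, and 5.75% were higher and 5.45% lower at an unadjusted p under 0.05. The GTPase scores were 0.414, 0.447, 0.056 and 0.382 in KO mice 1 to 4, against -0.419, -0.410, -0.533 and 0.062 in WT mice 1 to 4. The same mice, KO mouse 3 and WT mouse 4, were the ones that met. The 3 calls in these lists were 0 without WT mouse 3, and 1 without WT mouse 1, WT mouse 2, KO mouse 2 or KO mouse 4.

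Markers of other marrow cells moved in part with the members, and their part in the result was not tested. Of 16 macrophage and dendritic cell markers 9 were measured, Cd68 and Cd74 rose and Mrc1 fell, and the list summed to between 230.4 and 298 CPM in KO libraries and between 117 and 222 CPM in WT libraries. Of 10 markers of plasmacytoid dendritic cells, the main interferon producers, 3 were measured and Siglech, Klk1 and Ly6d had 0 counts in every library. That list summed to between 232 and 328 CPM in KO and between 229.8 and 302 CPM in WT, most of it from Tcf4, which stem cells also express. Neutrophil and monocyte markers summed to between 69.0 and 121 CPM in KO and between 39.6 and 71.0 CPM in WT, with 5 of 14 measured and Cxcr2 past the threshold. Those of B, T and NK cells summed to between 33.8 and 54.7 CPM in KO and between 24.1 and 48.7 CPM in WT, with 5 of 20 measured, 0 past it by edgeR and 0 at an unadjusted p under 0.05.

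Markers of the blood lineages near the stem cell moved in both directions. Of 14 markers of megakaryocytes and platelets 13 were measured, Itga2b and Gp1ba rose and Thbs1 fell, and the list summed to between 1518 and 1782 CPM in KO and between 1234 and 1604 CPM in WT. Of 11 erythroid markers 7 were measured and Car2, a carbonic anhydrase, fell, with sums between 1328 and 1530.3 CPM in KO and between 2277 and 2488 CPM in WT. Most of each sum came from Car2, at 1306 ± 84.9 CPM in KO and 2286 ± 111 CPM in WT (SD, n = 4). Of the 7 measured, 2 had a log2 fold change above 0 and 5 below it, with a median of -0.16. Stroma and endothelium markers summed to between 89.0 and 138 CPM in KO and between 86.2 and 124 CPM in WT, with 5 of 10 measured and 0 past the threshold or an unadjusted p under 0.05 by edgeR. The stem cell markers summed to between 4302 and 4808 CPM in KO and between 5185 and 5546 CPM in WT, with 0 of 15 past the threshold, and 1 higher and 5 lower at an unadjusted p under 0.05 by edgeR. The 1 was Ly6a, or Sca-1, a marker used to sort stem cells and itself induced by interferon, at 81.0 ± 6.52 CPM in KO and 47.9 ± 14.1 CPM in WT (SD, n = 4, adjusted p = 0.0967 by edgeR).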

How the data were processed

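The authors deposited 1 table per mouse, with unnormalized read counts for each gene symbol. Per the labels' protocols, RNA was amplified before library making, reads were mapped with STAR (Galaxy version 2.4.0d-2), counted with htseq-count and tested by the authors with DESeq2. Per the submitters' processing notes the build was mm10. Amplified reads without molecular identifiers are not independent molecules, so low counts are less certain than they look.

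The main test here was edgeR 4.0.16 under R 4.3.3. After filterByExpr (minimum count 10, minimum total 15) libraries were scaled by TMM (factors 0.974 to 1.03) and genes compared by the quasi-likelihood test with robust dispersion and genotype as the only term. P-values are two-sided, adjusted by the Benjamini-Hochberg method over 11498 genes, with a threshold of 0.05. The SE is the size of the log2 fold change over the square root of F. Scores used log2 CPM with a prior count of 2. Exon lengths and positions are from GENCODE release M21 of the same build. The procedure was tested on simulated counts.

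The members and lists were chosen with earlier results of these data known. Values by library are given for members past the threshold, for those with an unadjusted p under 0.05 and no overlap, for those with a fold below 1, for the 3 highest per kilobase and for Isg15, Irf7, Usp18, Mx1 and Rsad2. Values by library for Oas3 and Ifit1 were added after they were seen, and Kit, Slamf1 and the Kdm4 genes were looked up by name. Alternatives were DESeq2 1.42.0 and its size factors, library totals, other filters, limma 3.58.1 voom, edgeR's legacy method, the mouse number as a block, thinned counts, an adjusted p of 0.1, other forms of the score and omission of each library.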

Additional observations from a re-analysis of the deposited data

Results flagged for a closer look

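In a check for a sample far from the others of its group, 68 groups of 4 mice were examined and 3 were marked. Chance marks about 1 in 20, so this is no more than chance would mark. The 3 were in Ifitm1 and Ifitm3, and no pattern is read from them. Ifitm1 in WT mouse 1 was at 126 CPM, far above the other WT mice at 79.7 to 81.8 CPM. Ifitm3 in KO mouse 1 was at 662 CPM, above the other KO mice at 544 to 562 CPM. Ifitm3 in WT mouse 2, the shallowest library, was at 345 CPM, below the other WT mice at 465 to 479 CPM.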

How the results depend on the processing

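Ifi44 and Oasl2 passed under all 17 alternatives fitted, with adjusted p of at most 0.00161 for Ifi44 and 0.0188 for Oasl2 by edgeR, DESeq2 or limma voom. The 2 called members became 8 with no filter, 9 with DESeq2, 4 with edgeR's legacy method, 5 with thinned counts and 7 at an adjusted p of 0.1, and lay between 2 and 6 when 1 library was left out. No member was called lower in KO under any of the alternatives that were refitted. The 67 genes called in all became 198 with no filter, 154 with DESeq2, 64 with edgeR's legacy method, 73 with thinned counts and 126 at an adjusted p of 0.1. They lay between 35 (without WT mouse 3) and 70 when 1 library was left out, with 44 without WT mouse 2 or KO mouse 4. The 3 calls in the interferon pathway lists became 6 with no filter, 6 with DESeq2 and 5 with thinned counts, and lay between 0 and 4 when 1 library was left out. The causes were not tested. Isg15 had no value under the filter of 5 CPM in 4 libraries, which it did not pass.

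The members' median log2 fold change lay between 0.37 and 0.61, the number higher at an unadjusted p under 0.05 between 16 and 21, the number with a log2 fold change above 0 between 29 and 32, and the number with no overlap between 11 and 17. The last 3 were added after the data were seen. The score difference lay between 0.505 and 0.696 when 1 library was left out, and was 1.045 with members scaled to unit SD, which changes its scale. Members near 0 changed sign. Mx2 was at 0.00 with no filter, 0.20 with DESeq2, 0.05 with limma voom, 0.20 with edgeR's legacy method, 0.05 with the replicate block and 0.26 with thinned counts, and between -0.68 and 0.42 without 1 library. Ifit2 was at 0.01 with thinned counts and between -0.12 and 0.03 without 1 library. Without 1 library Isg15 lay between -0.04 (without KO mouse 1) and 0.86, Rsad2 between -0.06 and 0.46 (below 0 without WT mouse 1 or KO mouse 2) and Ifitm1 between -0.32 and 0.01 (above 0 without WT mouse 1).

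Same-numbered KO and WT mice did not deviate together (correlations from -0.092 to -0.009 over 11498 genes), so the numbers were not taken as pairs. With the replicate block 3 members were called, Rtp4 being added (adjusted p = 0.0293 by edgeR), and 57 genes in all. Mx1, Mx2, Irf7, Usp18, Ifit3, Isg15 and Oasl1 are limited by depth, with under 100 counts in each WT library.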

Other observations

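Antiviral effectors often lie beside a related gene, and 13 pairs of measured members, some sharing a gene, lay within 100 kilobases of each other. After their values were seen, the log2 ratio of the 2 genes was compared between genotypes mouse by mouse, with a two-sided exact permutation test (n = 4 against 4) adjusted over the 13 pairs. The smallest p of this design is 0.0286, so no pair could pass the adjustment alone, and at least 8 pairs at that p would have been needed. The adjusted values therefore say little, and the ratios are given as a description. The ratio of Parp14 to Dtx3l was 0.04 ± 0.13 in KO and -0.39 ± 0.12 in WT (SD, exact p = 0.0286, adjusted p = 0.159), higher in every KO mouse than in any WT mouse. That of Ifit3 to Ifit2 was -2.65 ± 0.43 in KO and -4.02 ± 0.92 in WT (exact p = 0.0286, adjusted p = 0.159). Its groups did not overlap either, but KO mouse 3 at -3.09 and WT mouse 4 at -3.1 all but met. For Ifit1 to Ifit2 it was 1.02 ± 0.43 in KO and 0.11 ± 0.54 in WT (exact p = 0.0857, adjusted p = 0.159), with overlap. For Mx1 to Mx2 it was 0.71 ± 0.52 in KO and -0.77 ± 0.91 in WT (exact p = 0.0571, adjusted p = 0.159). The ratio of Oas3 to Oas2 was 3.07 ± 0.57 in KO and 3.18 ± 0.63 in WT (exact p = 0.857). Adjusted p over the 13 pairs lay between 0.159 and 0.857.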
